A study of Mus musculus with 6 samples.

Results

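*Prnd*-positive endothelial cells of the TNF-Tg lung were defined here as cell barcodes with an endothelial profile and at least 2 unique molecular identifiers (UMIs, each of which counts 1 captured RNA molecule) of *Prnd*. A barcode passed with at least 500 genes and at most 10% mitochondrial UMIs, was endothelial with at least 3 of *Pecam1*, *Cdh5*, *Cldn5*, *Tie1*, and *Egfl7* detected, and was left out as cycling with 2 or more of *Mki67*, *Top2a*, and *Cenpf* detected. The rule found 4815 members among 14138 noncycling endothelial barcodes of the TNF-Tg libraries and 38208 barcodes of the whole series. In the WT libraries only 16 of 16737 noncycling endothelial barcodes met it. The study set up 6 single-cell libraries, 1 for each genotype and age (8, 14, and 20 weeks), and each library pooled lung cells from more than 1 female mouse. TNF-Tg mice carry a TNF transgene, and the controls were WT littermates. Before capture by the 10x Genomics 3′ method, cells were sorted as viable (7-AAD-) and negative for the leukocyte marker CD45 and the epithelial marker CD326. The files do not separate the mice of a pool, so a library is 1 sample, and the 3 libraries of a genotype differ in age. P values below for 2 arms of a library therefore measure how their difference varies over 3 pools of different ages. Between genotypes, p values measure the spread between pools of different ages.

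*Prnd* encodes doppel, a GPI-anchored glycoprotein of the prion protein family that is known from testis and from endothelium of growing vessels. The alveolar capillary bed is built of general capillary (gCAP) cells, which keep progenitor capacity and express *Gpihbp1*, *Kit*, and *Aplnr*, and of aerocytes (aCAP), which line the gas exchange surface and express *Car4* and *Ednrb*. Endothelial tip cells lead new sprouts and are marked by *Esm1*, *Apln*, *Cxcr4*, and *Angpt2*, while TNF acts on endothelium through its receptors and NF-κB.

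In the GENCODE vM21 annotation of GRCm38, *Prnd* lies on the plus strand at chr2:131950861-131956130, and its paralog *Prnp*, the prion protein gene, lies upstream on the same strand at chr2:131909928-131938429, 12431 bases away. Another gene model, *Prn* at chr2:131909957-131956130, joins both loci and ends where *Prnd* ends. The count tables have a row for *Prnp* and a row for *Prnd* and no separate row for *Prn*, so 3′ reads from such a joined transcript and from *Prnd* itself cannot be told apart. RefSeq gives *Prnd* 2 start sites, and the window of each (250 bases before to 50 after the start, GRCm38.p6, plus strand) is shown because the members are defined by this gene. The first spans chr2:131950611-131950910 and the second chr2:131950787-131951086, so that they overlap, and capitals mark the bases covered by matches to the κB consensus, the motif of NF-κB.
*Prnd* window 1: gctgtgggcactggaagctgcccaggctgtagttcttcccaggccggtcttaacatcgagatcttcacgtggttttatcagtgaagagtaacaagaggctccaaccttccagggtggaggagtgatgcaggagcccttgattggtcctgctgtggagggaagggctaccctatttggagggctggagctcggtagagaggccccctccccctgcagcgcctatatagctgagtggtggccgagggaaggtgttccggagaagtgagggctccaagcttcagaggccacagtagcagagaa
*Prnd* window 2: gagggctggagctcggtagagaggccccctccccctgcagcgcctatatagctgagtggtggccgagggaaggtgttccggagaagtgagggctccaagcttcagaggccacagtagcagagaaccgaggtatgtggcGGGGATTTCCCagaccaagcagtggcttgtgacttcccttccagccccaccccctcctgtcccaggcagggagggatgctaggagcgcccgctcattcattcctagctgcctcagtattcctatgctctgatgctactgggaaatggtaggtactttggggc
The first window held no match. The second held 3 overlapping matches on both strands, the first at chr2:131950925-131950934. Of 32851 RefSeq windows of this length, 8.46% held a match to the κB consensus. Of the 12 genes raised most in the members (below), 9 had a window that was searched, and 2 of these, *Trp53i11* and *Rgcc*, held a match. The AP-1 motif TGANTCA, searched on both strands, was absent from both *Prnd* windows, present in 2 of those 9 genes (*Arhgap18* and *Prnp*), and present in 7.81% of all windows. The BMP response element GGCGCC was also absent from both *Prnd* windows, with a match in *Fscn1* alone of the 9 genes and in 11.9% of all windows. A match describes letters in a window and not binding.

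Passing barcodes held a median of 9179 to 9808 UMIs in the TNF-Tg libraries and 4455 to 4766 in the WT libraries, and the libraries held 33188193 to 70234976 UMIs in passing barcodes. Both libraries of 8 weeks were counted by the authors with Cell Ranger 5.0.0 and the others with 6.0.1, so version and age cannot be told apart. Any 2 libraries shared at most 0.264% of the smaller one's barcodes. Scrublet, which scores barcodes for likeness to simulated doublets, placed 5.28, 5.09, and 5.62% of the members among the highest scores of the libraries of 8, 14, and 20 weeks, beside 5.08, 4.48, and 5.18% of endothelial barcodes with no *Prnd* UMI. These barcodes were kept, and their removal was an alternative.

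The share of *Prnd*-positive barcodes was high in every TNF-Tg library and near 0 in every WT library. Of noncycling endothelial barcodes, 1288 of 5679 met the rule at 8 weeks, or 22.7% (95% interval 21.6 to 23.8%). At 14 weeks 1747 of 4518 did, or 38.7% (95% interval 37.2 to 40.1%), and at 20 weeks 1780 of 3941, or 45.2% (95% interval 43.6 to 46.7%). The WT counts were 3 of 5311, 2 of 5306, and 11 of 6120, or 0.0565, 0.0377, and 0.18%. The 3 TNF-Tg shares lay apart from each other beyond their counting intervals (exact Clopper-Pearson, counting error only) and followed the order of age. Because the rule uses *Prnd*, these shares are a description with no test. To set libraries of unequal depth side by side, each barcode was thinned at random to 2000 UMIs. The share of endothelial barcodes with any *Prnd* UMI was then 16.6, 30.5, and 35.8% in TNF-Tg and 0.0205, 0.0401, and 0.207% in WT, so the order of the TNF-Tg libraries by age and the gap between genotypes were kept, while the 8- and 14-week WT libraries, at 1 and 2 barcodes, changed places. Of barcodes under 2000 UMIs, 48 to 176 per TNF-Tg library and 318 to 433 per WT library were left out of this count.

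Fibroblast and mural barcodes of the same libraries show how often *Prnd* UMIs occur in cells of another lineage. With median depths of 13000.5, 13366.5, and 13719.5 UMIs, above the endothelial medians of 8894, 9164, and 9654, 0 of 420, 4 of 690, and 1 of 1240 held 2 or more *Prnd* UMIs. By a limit of 3 counts, the 0 of 420 allows a share of up to 0.714%, and the exact 95% interval reaches 0.874%. A single *Prnd* UMI was more common there, with 3.10, 12.3, and 3.15% holding at least 1, and 0.971, 2.65, and 0.485% after thinning.

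**Figure D1:**
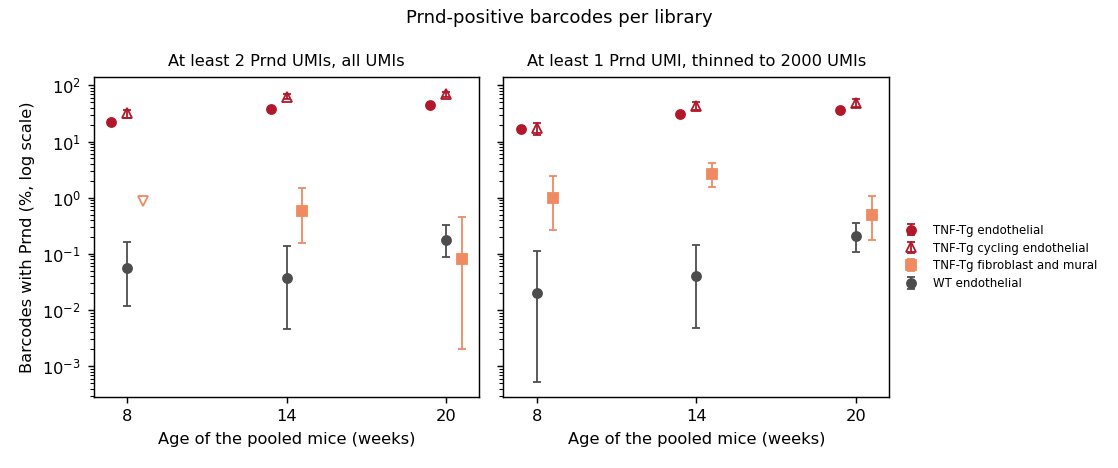
Percentage of barcodes with *Prnd* (log axis) by age of the pooled mice, with 2 or more UMIs before thinning (left) and 1 or more after thinning to 2000 UMIs (right). Points are single libraries, bars are exact 95% binomial intervals, and an open downward triangle is the upper bound where no barcode counted. TNF-Tg noncycling endothelial points lie between 16.6 and 45.2%, TNF-Tg fibroblast and mural points at or below 2.65%, and WT noncycling endothelial points at or below 0.207%. Open upward triangles are cycling endothelial barcodes of TNF-Tg, between 17.1 and 70.4%.

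Within the members, the *Prnd* count ranged from 2 to 59 UMIs, with medians of 5, 6, and 7 at 8, 14, and 20 weeks. Barcodes just inside the threshold, with exactly 2 UMIs, numbered 294, 324, and 216, and those just outside it, with 1 UMI, numbered 573, 649, and 327. The latter were in neither arm of the comparisons. Members were also deeper, at medians of 10604, 10325, and 10405.5 UMIs against 8188, 8222.5, and 8894 for *Prnd*-zero barcodes, and a window of 8000 to 12000 UMIs was therefore applied to both arms as an alternative.

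Levels of *Pecam1* and *Cdh5*, endothelial genes of the rule, were close in both arms and lower in the members in each library. Summed over the members of a library and scaled to counts per 1000000 UMIs (CPM), *Pecam1* stood at 1206, 1287, and 1235 CPM at 8, 14, and 20 weeks, beside 1334, 1386, and 1373 CPM in *Prnd*-zero barcodes, and *Cdh5*, which encodes VE-cadherin, at 1500.5, 1434, and 1324 beside 1735, 1588, and 1329 CPM. These genes chose the barcodes, so their levels are given with no test and do not check the label. Subtype markers were then counted per barcode. After thinning, 98.1, 97.0, and 96.7% of the members and 83.3, 71.2, and 68.8% of *Prnd*-zero barcodes held 3 or more of 14 gCAP markers. For aCAP markers the shares were 32.1, 31.0, and 17.7% and 48.9, 60.0, and 46.7%, for arterial markers 56.5, 36.5, and 30.01% and 51.4, 50.8, and 47.2%, with members above the reference at 8 weeks only, for venous markers 6.53, 6.16, and 7.26% and 15.2, 9.33, and 14.7%, and for lymphatic markers 0.0778, 0.0581, and 0.113% and 0.639, 1.04, and 2.84%. Marker sets overlap in a barcode, so these shares do not add up to the whole. Gates of other lineages (fibroblast and mural, immune, and epithelial and mesothelial) were each passed by at most 1.13% of the thinned members. In the reference the fibroblast and mural gate was passed by 1.15, 3.802, and 2.23%.

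The members were next compared with *Prnd*-zero endothelial barcodes of the same libraries, to ask what else sets them apart, in edgeR on the UMI sums of each arm with the library as a block. Of 13561 genes tested, 1802 were higher in the members (13.3% of genes) and 2100 were lower (15.5%) at an FDR under 0.05, and the median log2 fold change of all genes was -0.0041. The counts depended on single libraries. Without the 14-week library 340 genes were higher and 595 lower, and without the 20-week library 695 and 1000. Without the 8-week library 2256 and 2558 were called. The reference arm is a mixture of endothelial subtypes, and the members hold fewer aCAP, venous, and lymphatic barcodes than it does. For this reason the comparison was repeated, by a choice made after seeing the data, with barcodes that held 2 or more summed UMIs of the aCAP genes *Ednrb*, *Fibin*, *Tbx2*, and *Chst1*, or likewise of 4 arterial, 5 venous, or 4 lymphatic genes, left out of both arms. That left 1050, 1555, and 1553 members and 2278, 1160, and 819 reference barcodes, and it is called the subtype-filtered comparison below. It called 1002 of 12569 genes higher (7.97%) and 1040 lower (8.27%), of which 848 and 840 were called in the same direction before. A stricter filter on the reference alone left out every barcode with 3 or more markers of any of these subtypes. It kept only 51, 29, and 29 reference barcodes and called 82 genes higher and 112 lower. Those barcodes were shallow, at medians of 2110, 1328, and 2934 UMIs against 10604, 10325, and 10405.5 in the members. The members were not filtered, and before thinning 84.4, 80.9, and 68.1% of them held 3 or more aCAP markers. Against this shallow reference the direction of *Emp2*, *Bmpr2*, *Smad6*, and other genes named below turned, without passing the test, and *Car4* was called higher. It is therefore not a like-for-like check of subtype.

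The 12 genes raised most in the members were *Esm1*, *Cxcr4*, *Arhgap18*, *Tcf15*, *Fscn1*, *Bambi*, *Trp53i11*, *Vwa1*, *Fam167b*, *Col15a1*, *Prnp*, and *Rgcc*, from 12.1-fold to 3.08-fold, and the rule that picked them required the same direction in all 3 libraries. All 12 were also called higher in the subtype-filtered comparison and in the window of 8000 to 12000 UMIs. Of the 12, 10 were called without the 14-week library, 11 without the 20-week library, 6 without the block, and 3 with the stricter filter on the reference. Among the 12 lowered most were *Ccl21a*, *Sftpc*, *Vwf*, *Ednrb*, *Fibin*, *Fbln5*, *Cpe*, *Emp2*, *Krt80*, *Tbx2*, and *Fbln2*, and of the 12 only *Sftpc*, *Emp2*, *Krt80*, and *Fbln2* were called in the subtype-filtered comparison. The filter uses *Ccl21a*, *Vwf*, *Ednrb*, *Fibin*, *Cpe*, *Tbx2*, and *Fbln2* themselves to leave barcodes out, so their results there are partly fixed and do not check these genes.

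Secreted and surface markers of tip cells led the raised genes. *Esm1* encodes endocan, a proteoglycan secreted by tip cells, and stood at 60.6, 62.2, and 198 CPM in the members at 8, 14, and 20 weeks, at 3.996, 5.50, and 20.2 CPM in *Prnd*-zero barcodes, and at 29.5, 48.3, and 42.2 CPM in *Prnd*-zero barcodes of WT. The members were above the reference in every library with no overlap between arms (log2 fold change 3.59 ± 0.12 (SE), FDR = 0.000882), with the highest level at 20 weeks. It was detected in a minority of members, 6.84, 6.45, and 14.9% after thinning, against 0.586, 0.543, and 2.23% of *Prnd*-zero barcodes. *Cxcr4*, the receptor of CXCL12, stood at 148, 56.4, and 93.4 CPM in the members against 44.2, 8.38, and 11.1 CPM, highest at 8 weeks in both arms, and was 5.63-fold higher (log2 fold change 2.49 ± 0.27 (SE), FDR = 0.00454). *Angpt2*, a ligand that opposes TEK signaling, stood at 12.6, 21.6, and 64.7 against 9.48, 10.9, and 12.6 CPM, with the widest gap at 20 weeks (log2 fold change 1.35 ± 0.37 (SE), FDR = 0.0479). *Trp53i11*, listed among the sprouting genes, stood at 56.9, 129.7, and 178 against 35.9, 23.8, and 31.4 CPM (log2 fold change 1.92 ± 0.40 (SE), FDR = 0.0216). Of 20 tip cell and sprouting genes tested, 7 were higher and 3 lower, with a median log2 fold change of 0.43, and in the subtype-filtered comparison 12 were higher and 0 lower in edgeR, with a median of 1.11. Beside *Ednrb*, the lower genes were *Nrp1* and *Insr*, named after their values were seen (log2 fold changes -0.41 and -0.25, edgeR FDR = 0.0183 and 0.037). Neither was called in the subtype-filtered comparison (edgeR FDR = 0.394 and 0.636). *Ednrb*, 1 of the 3 lower genes of this list, is also used by that filter to leave barcodes out, so the loss of its call is partly fixed.

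*Apln*, the apelin gene and another tip cell marker, depended on which barcodes formed the reference. Its levels were 21.0, 43.9, and 138 CPM in the members and 103, 88.7, and 94.2 CPM in *Prnd*-zero barcodes, so that the members were lower at 8 and 14 weeks and higher at 20 weeks, and the difference did not pass (log2 fold change -0.81 ± 0.53 (SE), FDR = 0.301). In the subtype-filtered comparison it was called higher (log2 fold change 1.84 ± 0.16 (SE), FDR = 0.00253), and in the UMI window, with all subtypes kept, it was called lower (log2 fold change -1.33, edgeR FDR = 0.0399). Its receptor gene *Aplnr*, a gCAP marker, stood at 217, 177, and 175 against 174, 61.3, and 49.0 CPM (log2 fold change 1.27 ± 0.30 (SE), FDR = 0.0328), which did not pass in the subtype-filtered comparison (FDR = 0.106).

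Among receptors of the VEGF and angiopoietin families and their ligands, 2 of 12 tested genes were higher and 7 lower (median log2 fold change -0.38). In the subtype-filtered comparison 4 were higher and 5 lower (median -0.25). *Kdr* and *Pgf*, named after their values were seen, were called higher only there (log2 fold changes 0.54 and 2.59, edgeR FDR = 0.00328 and 0.0335). Against all *Prnd*-zero barcodes *Kdr* had the opposite sign and did not pass (log2 fold change -0.34, edgeR FDR = 0.052). *Nrp2*, a coreceptor for VEGFC and semaphorins, was the other gene called higher there beside *Angpt2*, with 118, 182, and 206 against 51.5, 83.0, and 119 CPM (log2 fold change 1.09 ± 0.083 (SE), FDR = 0.00226). *Vegfc* fell to 2.96, 3.95, and 9.14 from 23.8, 12.1, and 32.4 CPM in the reference (log2 fold change -2.05 ± 0.26 (SE), FDR = 0.00638), as did *Angpt1*, the agonist of TEK (log2 fold change -1.40 ± 0.21 (SE), FDR = 0.0094), although *Angpt1* lay below 4 CPM in each arm and was not called in the subtype-filtered comparison (FDR = 0.556).

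Of 14 gCAP markers, 4 were higher and 4 lower (median log2 fold change 0.33), and 1 and 6 in the subtype-filtered comparison (median -0.11), although more members than reference barcodes held 3 or more of them. *Rgcc*, a cell cycle regulator and gCAP marker, rose in the members at every age, to 492, 1048, and 1283 CPM from 199, 341, and 369 CPM (log2 fold change 1.62 ± 0.11 (SE), FDR = 0.00174), while WT *Prnd*-zero barcodes lay at 34.9, 23.3, and 28.5 CPM. *Kit*, the stem cell factor receptor gene, was at 617, 485, and 423 against 534, 242, and 177 CPM (log2 fold change 0.87 ± 0.21 (SE), FDR = 0.033), close together at 8 weeks and apart at 14 and 20 weeks. It was not called in the subtype-filtered comparison (FDR = 0.284). The lower markers were *Hilpda*, which encodes a lipid droplet protein (log2 fold change -0.80 ± 0.18 (SE), FDR = 0.0258), and, named after their values were seen, *Ptprb*, *Sema3c*, and *Tek*, which fell by 0.72, 0.69, and 0.32 on the log2 scale. *Plvap*, a diaphragm protein of fenestrae and caveolae, was at 329.5, 517, and 694 against 345, 199, and 314 CPM, lower in the members at 8 weeks and higher later, and did not pass (log2 fold change 0.87 ± 0.29 (SE), FDR = 0.0779). *Cd34*, a sialomucin of capillaries and stem cells, was at 694, 899, and 842 against 646, 853, and 782 CPM and did not pass either (log2 fold change 0.14 ± 0.046 (SE), FDR = 0.0706).

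**Figure D2:**
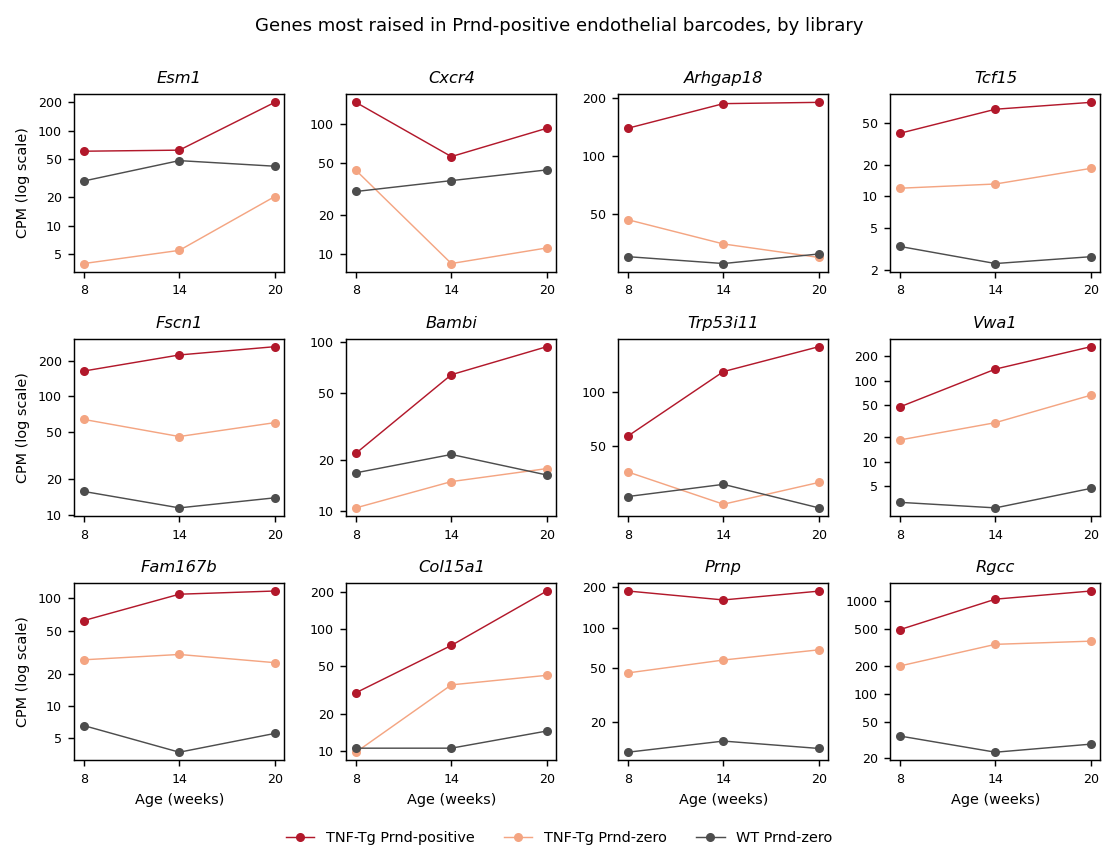
Levels (CPM of the summed UMIs, log axis) of the 12 genes raised most, by age of the pooled mice, in TNF-Tg *Prnd*-positive, TNF-Tg *Prnd*-zero, and WT *Prnd*-zero endothelial barcodes; each point is 1 library. The genes were picked for members above TNF-Tg *Prnd*-zero barcodes in every library. The WT points lie above the TNF-Tg *Prnd*-zero points at every age for *Esm1*, and at 14 and 20 weeks for *Cxcr4*.

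*Prnp* rose with its neighbor *Prnd*. It stood at 187, 160.2, and 186 CPM in the members and 46.1, 57.5, and 68.4 CPM in *Prnd*-zero barcodes, without overlap (log2 fold change 1.70 ± 0.12 (SE), FDR = 0.00186), and at 11.9, 14.4, and 12.7 CPM in WT. The members' levels were nearly flat over age, unlike those of *Esm1*. After thinning, 26.9, 26.2, and 29.95% of the members and 7.25, 9.28, and 10.3% of the reference held a *Prnp* UMI. The remaining family member, *Sprn*, was at or below 0.157 CPM in both arms and was filtered out before testing.

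Among genes of cell shape and transcription, the members were again higher for several. *Fscn1*, which encodes the actin bundler fascin of filopodia, stood at 163, 223, and 261 against 63.9, 45.9, and 60.0 CPM, apart in every library (log2 fold change 1.96 ± 0.19 (SE), FDR = 0.00379). *Arhgap18*, a GTPase activating protein, stood at 139.8, 188, and 191 against 46.4, 34.7, and 29.5 CPM (log2 fold change 2.28 ± 0.23 (SE), FDR = 0.00379), and WT *Prnd*-zero barcodes, at 29.7, 27.4, and 30.7 CPM, were near the TNF-Tg reference. *Tcf15*, a basic helix-loop-helix factor of capillary endothelium, stood at 39.8, 67.5, and 78.5 against 11.9, 13.1, and 18.4 CPM (log2 fold change 2.11 ± 0.13 (SE), FDR = 0.00144). Of 31 endothelial transcription factor genes tested, 10 were higher and 9 lower. *Klf4*, a flow-responsive factor, fell to 192, 325, and 148 from 377, 711, and 469 CPM (log2 fold change -1.20 ± 0.13 (SE), FDR = 0.00453), and *Gata2* fell by 0.90 on the log2 scale (edgeR FDR = 0.0039). Both were also called lower in the subtype-filtered comparison.

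Genes of BMP signaling were called in both directions, more of them lower. Of 30 genes of the BMP and TGF-β pathways tested, 6 were higher and 13 lower (median log2 fold change -0.37), and 3 and 11 in the subtype-filtered comparison. *Bmp4*, a ligand, lay at 5.99, 7.44, and 12.9 CPM in the members against 29.2, 37.2, and 73.9 CPM, lower in every library (log2 fold change -2.34 ± 0.069 (SE), FDR = 0.000882). The receptor genes *Bmpr2*, mutated in heritable pulmonary arterial hypertension, and *Bmpr1a* were lower too, with log2 fold changes of -1.16 and, in the subtype-filtered comparison, -0.97 for *Bmpr1a*, which did not pass there (FDR = 0.195). *Bmpr2* stood at 544, 500.4, and 411 against 768, 931, and 767 CPM, beside WT *Prnd*-zero levels of 1478, 1670.2, and 1596 CPM (log2 fold change -0.72 ± 0.087 (SE), FDR = 0.00574). *Smad6*, an inhibitory SMAD and BMP target, fell to 77.2, 89.3, and 79.5 from 118, 228, and 237 CPM (log2 fold change -1.14 ± 0.18 (SE), FDR = 0.0104). In contrast, *Bambi*, a pseudoreceptor that blocks signaling by this receptor family, rose to 21.9, 63.8, and 93.4 CPM from 10.4, 14.9, and 17.8 CPM (log2 fold change 1.93 ± 0.26 (SE), FDR = 0.00682), with the smallest gap at 8 weeks. *Bmp2* lay at 41.2, 38.0, and 28.0 against 39.9, 49.9, and 52.0 CPM and overlapped between arms (log2 fold change -0.36 ± 0.17 (SE), FDR = 0.161). It was called lower in the subtype-filtered comparison (log2 fold change -0.75, edgeR FDR = 0.0443). *Bmp6* was slightly higher in the members (log2 fold change 0.22 ± 0.049 (SE), FDR = 0.0261), a call that was lost there with the opposite sign (log2 fold change -0.18, FDR = 0.102).

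Basement membrane and matrix genes were called in both directions, 12 higher and 6 lower of 30 (median log2 fold change 0.031), and 10 and 7 in the subtype-filtered comparison (median -0.0031). *Col15a1*, a collagen of vascular basement membranes, stood at 30.02, 73.1, and 203 against 9.81, 34.8, and 41.7 CPM (log2 fold change 1.72 ± 0.24 (SE), FDR = 0.00739). *Hspg2*, which encodes perlecan, stood at 256, 414, and 512 against 122, 209, and 287 CPM (log2 fold change 1.01 ± 0.058 (SE), FDR = 0.00132), and *Col4a2*, a chain of collagen IV, at 1446, 1997, and 1814 against 1197, 1292, and 972 CPM (log2 fold change 0.65 ± 0.13 (SE), FDR = 0.0191). *Vwa1*, a partner of perlecan outside this list, rose from 18.5, 30.3, and 66.0 to 47.4, 138, and 261 CPM (log2 fold change 1.91 ± 0.17 (SE), FDR = 0.00301), and *Adamts4*, an aggrecan-cleaving protease, rose at levels below 6 CPM (log2 fold change 1.04 ± 0.23 (SE), FDR = 0.0252). *Lamb2*, a laminin chain, fell (log2 fold change -0.89 ± 0.12 (SE), FDR = 0.00646). For *Hspg2*, WT *Prnd*-zero barcodes lay at 17.8, 9.26, and 11.6 CPM, below either TNF-Tg arm. *Igfbp7*, an extracellular binding protein counted among the aCAP markers, stood at 3124, 5043, and 6185 against 2158, 4136, and 3138 CPM and rose against the direction of the other markers of its list (log2 fold change 0.65 ± 0.14 (SE), FDR = 0.0224). *Cyfip2*, which encodes a subunit of the WAVE actin regulator, rose from 80.8, 29.6, and 26.5 to 121, 58.8, and 41.6 CPM, with WT *Prnd*-zero barcodes at 0.425, 0.885, and 1.20 CPM (log2 fold change 0.78 ± 0.093 (SE), FDR = 0.00547). *Cdh13*, which encodes T-cadherin, lay at 12.8, 93.3, and 140.0 against 19.4, 93.5, and 151 CPM and did not pass (log2 fold change -0.15 ± 0.12 (SE), FDR = 0.401).

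Of 26 NF-κB target genes, 10 were higher and 3 lower, with a median log2 fold change of 0.17, and 14 and 1 in the subtype-filtered comparison, with a median of 0.44. Their summed level was 2143, 2073, and 2258 CPM in the members and 1779, 2133, and 2597 CPM in the reference, higher in the members at 8 weeks and lower at 14 and 20 weeks. The 4 of largest change were low. *Cxcl9*, a chemokine gene, reached 3.16, 6.98, and 7.49 against 0.447, 0.524, and 1.84 CPM (log2 fold change 2.79 ± 0.34 (SE), FDR = 0.00577), but 1 barcode held 142 of its 154 UMIs in the members of the 20-week library and 7 to 11 barcodes of each library's members held any. It was not called in the subtype-filtered comparison (FDR = 0.253). *Cxcl2* lay below 3 CPM throughout (log2 fold change 1.13 ± 0.28 (SE), FDR = 0.037), *Ccl7*, a monocyte chemokine gene, fell to 0.329, 4.30, and 6.76 from 1.55, 19.7, and 16.2 CPM (log2 fold change -1.70 ± 0.24 (SE), FDR = 0.00751), and *Selp*, the venous adhesion gene for P-selectin, fell with a sign that turned in the subtype-filtered comparison (log2 fold change -2.17 ± 0.16 (SE), FDR = 0.00221). That filter uses *Selp* itself to leave barcodes out, so the turn of *Selp* and its part in the list counts there are partly fixed. Of the TNF pathway genes, 2 of 13 were higher (*Casp8* and *Tradd*, adaptors and effectors of death receptors) and 1 lower (*Ltbr*, the lymphotoxin-β receptor gene), each by at most 0.37 on the log2 scale. The receptor gene *Tnfrsf1a* lay at 128, 142, and 122 against 151, 149.6, and 141 CPM (log2 fold change -0.12 ± 0.056 (SE), FDR = 0.16), and *Tnfrsf1b* below 12 CPM (log2 fold change -0.55 ± 0.16 (SE), FDR = 0.0546). The row of *Tnf* itself lay at 3.03, 2.33, and 1.75 against 2.06, 7.12, and 5.13 CPM and did not pass (log2 fold change -0.85 ± 0.46 (SE), FDR = 0.221). That row is the mouse gene, counted on the mouse genome, and the study also names these mice Tg(hTNF). It therefore cannot be taken as the level of the transgene.

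Interferon-stimulated genes were called in 1 direction, 8 higher and 0 lower of 24, with small changes (median log2 fold change 0.087). In edgeR, *Bst2*, which encodes tetherin, rose to 903, 792, and 756 from 716, 478, and 490.4 CPM (log2 fold change 0.61 ± 0.092 (SE), FDR = 0.00928), and *Ifi44*, *Gbp5*, and *Isg15* rose by 0.70, 0.55, and 0.43 on the log2 scale. The summed level of the list overlapped between arms, at 5634, 4752, and 4525 against 5410.2, 4160.0, and 4574 CPM, and in the subtype-filtered comparison 6 genes were higher and 1 lower. Of 14 antigen presentation genes, 1 was higher (*Psmb8*, an immunoproteasome subunit) and 2 lower (*H2-Eb1*, a class II chain, and *Ciita*, the class II transactivator), each within 0.53 on the log2 scale. In the subtype-filtered comparison 2 were higher and 5 lower, with *Ciita* at -0.97 and *H2-Eb1* at -0.81, and the others lower, named after their values were seen, were *H2-Ab1*, *H2-Aa*, and *Cd74*.

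DNA replication and G1/S genes rose in a majority, although barcodes with 2 or more of 3 cycle genes had been left out of both arms. Of 26 tested, 16 were higher and 4 lower (median log2 fold change 0.64), and 15 and 3 in the subtype-filtered comparison. *Hells*, a chromatin remodeler of S phase, stood at 59.6, 30.5, and 27.0 against 21.5, 13.6, and 10.5 CPM (log2 fold change 1.39 ± 0.075 (SE), FDR = 0.00122), and *Uhrf1*, a reader of hemimethylated DNA, at 9.28, 4.76, and 5.30 against 3.67, 1.78, and 1.499 CPM (log2 fold change 1.55 ± 0.17 (SE), FDR = 0.0048). *Ccnd2*, which encodes a D-type cyclin, and *Cdkn2a*, which encodes the inhibitor p16, fell. *Ccnd2* lay at 31.5, 39.5, and 25.9 against 70.1, 125, and 82.8 CPM (log2 fold change -1.45 ± 0.11 (SE), FDR = 0.00213) and *Cdkn2a* at 1.05, 2.53, and 4.23 against 4.44, 9.27, and 22.5 CPM (log2 fold change -2.09 ± 0.15 (SE), FDR = 0.00211). *Top2a*, whose level the rule limits in both arms, stood at 5.53, 4.15, and 4.52 CPM in the members and 3.22, 2.20, and 1.96 CPM in the reference.

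Among Notch genes, 3 of 14 were higher and 4 lower. *Notch2* rose (log2 fold change 0.55 ± 0.12 (SE), FDR = 0.027) and the ligand gene *Jag1* fell to 15.7, 11.6, and 15.7 from 28.1, 34.2, and 44.4 CPM (log2 fold change -1.25 ± 0.15 (SE), FDR = 0.00515). Vasoactive genes were mainly lower, 1 higher and 11 lower of 21. *Hpgd*, which degrades prostaglandins, fell to 965, 358, and 135 from 1821, 989, and 525 CPM (log2 fold change -1.40 ± 0.19 (SE), FDR = 0.00694), falling with age in both arms, and the cyclooxygenase gene *Ptgs1* to 3.75, 2.78, and 3.55 from 18.7, 14.1, and 19.9 CPM (log2 fold change -2.33 ± 0.096 (SE), FDR = 0.00109). Glycolysis and hypoxia genes were 4 higher and 8 lower of 22, and mesenchymal transition genes 1 higher and 6 lower of 16, with calls in both directions in each list. In the subtype-filtered comparison, Notch genes were 2 higher and 4 lower of 14, and vasoactive genes 2 and 7 of 20. Glycolysis and hypoxia genes were 1 and 5 of 21 there, and mesenchymal transition genes 2 and 2 of 15.

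Markers of other endothelial subtypes were largely lower in the members. Of 14 aCAP markers, 12 were lower and only *Igfbp7* was higher (median log2 fold change -2.23). *Emp2*, a tetraspan protein of aCAP, lay at 109.7, 81.3, and 61.5 against 741, 814, and 616 CPM (log2 fold change -3.08 ± 0.13 (SE), FDR = 0.00109) and *Ednrb*, the endothelin B receptor gene, at 12.5, 10.4, and 5.93 against 120.3, 114, and 119 CPM (log2 fold change -3.61 ± 0.20 (SE), FDR = 0.00127). *Car4*, a carbonic anhydrase, was less reduced, at 308, 351, and 157 against 736, 995, and 702 CPM (log2 fold change -1.59 ± 0.17 (SE), FDR = 0.00436), and was still detected in 30.1, 35.5, and 18.0% of thinned members. *Krt80*, a keratin gene in none of the lists, lay at 11.8, 14.6, and 17.3 against 92.4, 143, and 150.2 CPM (log2 fold change -3.08 ± 0.073 (SE), FDR = 0.00074). Arterial markers were 0 higher and 6 lower of 13, venous 0 and 8 of 12, and lymphatic 0 and 7 of 8. *Vwf*, the von Willebrand factor gene of larger vessels, lay at 17.8, 7.90, and 10.6 against 199, 133, and 343 CPM (log2 fold change -4.14 ± 0.29 (SE), FDR = 0.00193), and the lymphatic chemokine gene *Ccl21a* at 2.04, 23.3, and 15.95 against 197, 229.6, and 329 CPM (log2 fold change -4.33 ± 0.53 (SE), FDR = 0.00586). Both lost the call once subtype-marked barcodes were left out (edgeR FDR = 0.28 and 0.218), a filter that uses these 2 genes themselves, so the counts of subtype markers after it are partly fixed by it.

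Fibroblast and mural markers were 0 higher and 8 lower of 10, with sums of 248, 183, and 194 CPM in the members and 390.2, 854, and 615 CPM in the reference, and none of the 10 was at 0 in the members. Epithelial and mesothelial markers were 0 and 6 of 8, with sums of 28.7, 102, and 113 against 45.5, 3353, and 58.0 CPM, and immune markers 0 and 1 of 9 with sums of 17.2, 71.0, and 216 against 20.4, 93.4, and 324 CPM. The club cell gene *Scgb1a1* made up 2942 CPM of the 14-week reference sum and did not pass (log2 fold change -0.81, edgeR FDR = 0.795). The surfactant gene *Sftpc*, among the 12 lowered most, stood at 1.05, 9.46, and 1.51 against 2.09, 323, and 11.5 CPM, and 1 barcode of the 14-week reference held 5975 of its 6171 UMIs. Dissociation stress genes were 0 higher and 4 lower of 15, and platelet and red cell markers 0 and 3 of 8. The part of these markers in the calls above was not tested as a whole, but leaving out barcodes with 2 or more markers of another lineage from both arms gave 1775 genes higher and 2003 lower.

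**Figure D3:**
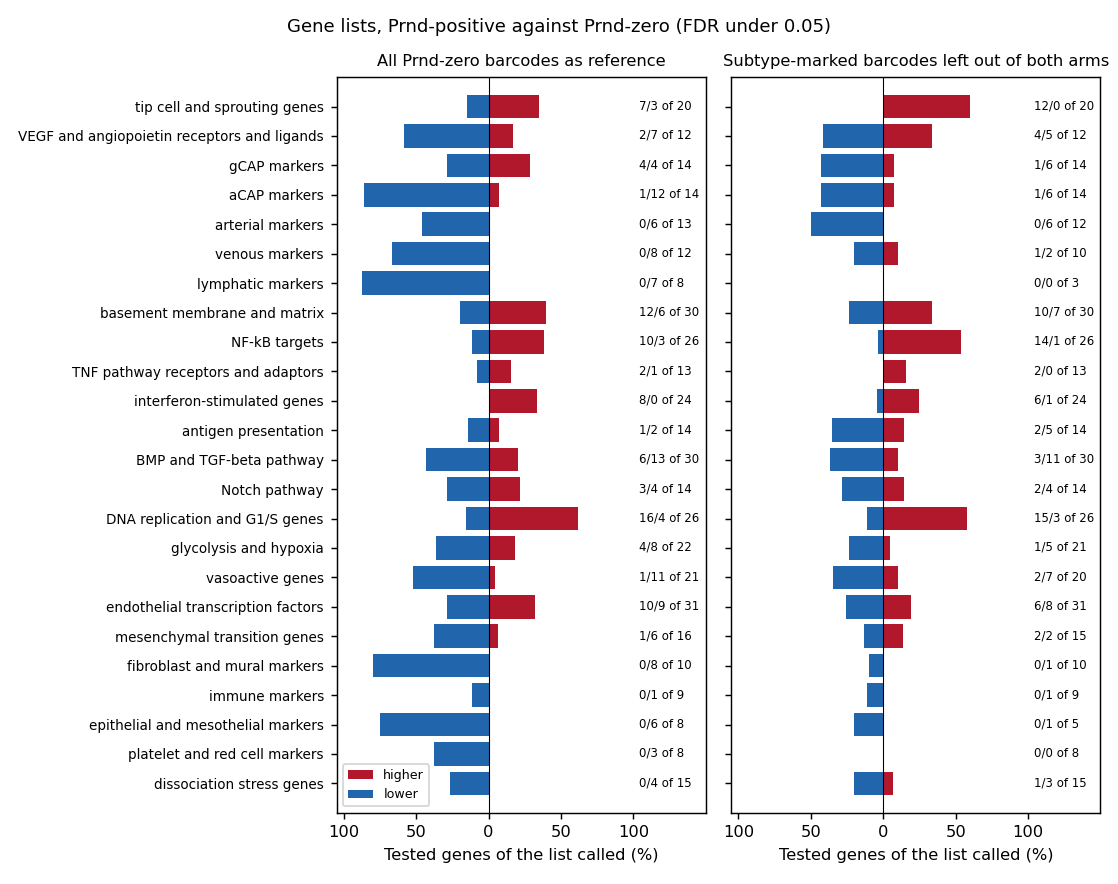
Percentage of the tested genes of each list called higher (right of 0) or lower (left of 0) in the members at an FDR under 0.05, against all *Prnd*-zero barcodes (left panel) and in the subtype-filtered comparison (right panel); printed numbers are higher/lower of tested. Sprouting, NF-κB, and G1/S lists lean to the right in both panels, and the aCAP, venous, and lymphatic bars shorten in the right panel, where some of their genes were used to leave barcodes out. *Ednrb* of the sprouting list and *Selp* of the NF-κB list were used in this way too.

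Several genes differed by the number of *Prnd* UMIs per barcode, given here for classes of 0, 1, 2, 3 to 4, and 5 or more UMIs as a description without a test, since *Prnd* counts depend on depth too (median 9862 UMIs in the class of 2 and 11262 in the highest class at 8 weeks). At 20 weeks *Rgcc* stood at 369, 743, 969.7, 1012, and 1389 CPM, and at 14 weeks *Fscn1* at 45.9, 78.6, 128, 156, and 268 CPM. *Esm1* was concentrated in the highest class, at 20.2, 56.8, 84.8, 59.2, and 245 CPM at 20 weeks and 3.996, 21.4, 10.7, 34.9, and 92.5 CPM at 8 weeks. *Emp2* went the other way, at 814, 421, 153, 93.6, and 59.6 CPM at 14 weeks, and *Bmpr2* stood at 767, 600.3, 548, 535, and 363 CPM at 20 weeks. Other genes did not follow the classes in order. *Col15a1* at 14 weeks stood at 34.8, 42.3, 30.2, 25.01, and 99.7 CPM, *Apln* at 20 weeks at 94.2, 84.6, 61.9, 35.9, and 172 CPM, and *Cd34* at 14 weeks at 853, 863, 829, 878, and 923 CPM. Barcodes with 1 *Prnd* UMI lay between 0 and 2 for *Rgcc*, *Fscn1*, *Emp2*, and *Bmpr2* in each library. *Kit* stood at 534, 593, 586, 608, and 634 CPM at 8 weeks and at 177, 305, 352, 403, and 437 CPM at 20 weeks, so its classes lay closer together at 8 weeks.

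**Figure D4:**
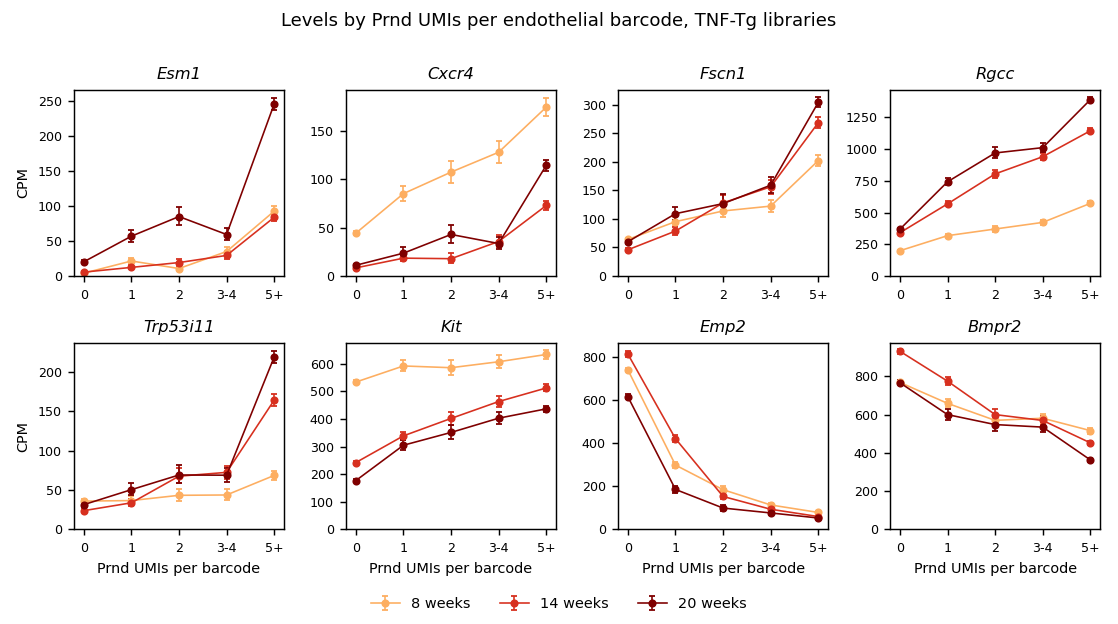
Levels (CPM of summed UMIs, linear axis from 0) of 8 genes by the number of *Prnd* UMIs per endothelial barcode in the 3 TNF-Tg libraries; bars are exact Poisson 95% intervals, which cover counting error only. *Esm1*, *Fscn1*, *Rgcc*, and *Trp53i11* are highest in the class of 5 or more UMIs in every library, and *Emp2* and *Bmpr2* are lowest there.

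The same genes were set beside the difference between genotypes in *Prnd*-zero endothelial barcodes, TNF-Tg against WT, a comparison that shares its TNF-Tg sums with the reference arm above and called 1724 of 14224 genes higher (12.1%) and 1678 lower (11.8%). Of the 12 genes raised most in the members, 6 were also called higher there, namely *Tcf15*, *Fscn1*, *Vwa1*, *Fam167b*, *Prnp*, and *Rgcc*, by 2.36, 2.01, 3.40, 2.34, 2.10, and 3.35 on the log2 scale. *Esm1* was called lower in TNF-Tg *Prnd*-zero barcodes (log2 fold change -2.08 ± 0.59 (SE), FDR = 0.0442), but leaving *Prnd*-positive barcodes out also takes most *Esm1*-rich barcodes from TNF-Tg and few from WT (counts below). Over all noncycling endothelial barcodes of TNF-Tg, *Esm1* stood at 21.6, 31.3, and 112 CPM, below the 29.5, 48.3, and 42.2 CPM of WT *Prnd*-zero barcodes at 8 and 14 weeks and above it at 20 weeks. *Cxcr4*, *Arhgap18*, *Bambi*, *Trp53i11*, and *Col15a1* did not pass there, with log2 fold changes of -0.81, 0.30, -0.38, 0.17, and 1.23. *Bmp2* was higher in TNF-Tg *Prnd*-zero barcodes by 3.82 (edgeR FDR = 0.000657) and *Bmpr2* lower by 0.98. The reference barcodes of TNF-Tg were deeper than those of WT, at medians of 8188 to 8894 against 4266.5 to 4540 UMIs.

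To separate *Prnd* from *Esm1*, members with fewer than 2 *Esm1* UMIs were compared with *Prnd*-zero endothelial barcodes that held 2 or more. Only 25, 15, and 39 barcodes of the 8-, 14-, and 20-week libraries formed that reference, beside 1196, 1596, and 1439 members, while 92, 151, and 341 members held both genes. The 15 reference barcodes of 14 weeks held 428301 UMIs. Without barcodes that held 2 or more markers of another lineage, 9 of them with 120079 UMIs were left, so most of that sum came from barcodes with such markers. In TNF-Tg lungs, 584 of 663 noncycling endothelial barcodes with 2 or more *Esm1* UMIs and either 0 or at least 2 *Prnd* UMIs were members, against 6 of 512 in WT. Of 11773 genes, 17 were higher in the members (0.144%) and 45 lower (0.382%) in edgeR, which on simulated counts of this comparison recovered 12.5% of 2-fold and 60.6% of 4-fold changes. Lower in the members were *Vwf* at 18.1, 5.87, and 7.06 CPM against 150.4, 156, and 321 CPM (log2 fold change -4.53 ± 0.45 (SE), FDR = 0.00926), the arterial kinase gene *Bmx* (log2 fold change -3.38 ± 0.34 (SE), FDR = 0.00926), *Gja5*, which encodes the arterial connexin 40 (log2 fold change -2.98 ± 0.34 (SE), FDR = 0.0154), *Fabp4*, a fatty acid binding protein (log2 fold change -2.71 ± 0.28 (SE), FDR = 0.00926), and *Bmp4* (log2 fold change -3.34 ± 0.52 (SE), FDR = 0.0364). *Igfbp3*, *Slc45a4*, and *Mgll* were lower too. Higher in the members were *Aplnr* at 222, 176, and 177 against 77.2, 28.0, and 33.6 CPM (log2 fold change 2.12 ± 0.26 (SE), FDR = 0.0199), *Prcp*, *Lrrc8b*, and *Samsn1*, and also the globin genes *Hba-a1* and *Hbb-bs*, the macrophage gene *Lyz2*, and the immunoglobulin gene *Igkc*. For *Igkc*, 1 member barcode of the 20-week library held 20868 of 21368 UMIs. Without the 14-week library 191 and 229 genes were called, without the 8-week library 4 and 17, and without the 20-week library 0 and 0 by edgeR, where 835 genes had an unadjusted p under 0.05.

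The 16 WT barcodes that met the rule, 3, 2, and 11 by age with 176159 UMIs in all, were too few for a test and are given as 1 sum with an exact Poisson interval of counting error. Of these, 2 of the 11 at 20 weeks were among the highest Scrublet scores. Most leading genes of the TNF-Tg members were high in them. *Esm1* stood at 596 CPM (95% interval 488 to 722) against 40.0 CPM in WT *Prnd*-zero barcodes, *Rgcc* at 1629 CPM (95% interval 1446 to 1829) against 29.0 CPM, and *Prnp* at 216 CPM (95% interval 153 to 296) against 13.0 CPM. *Vwa1* stood at 454 CPM (95% interval 360.1 to 565) against 3.56 CPM and *Igfbp7* at 5586 CPM (95% interval 5242 to 5946) against 1145 CPM. The interval of *Bambi*, 19.6 to 89.5 CPM, lay just above the 18.1 CPM of WT *Prnd*-zero barcodes. *Cyfip2* differed from these, with 1 UMI or 5.68 CPM (95% interval 0.144 to 31.6) against 0.851 CPM, while the TNF-Tg members held 121, 58.8, and 41.6 CPM and TNF-Tg *Prnd*-zero barcodes 80.8, 29.6, and 26.5 CPM. *Emp2* stood at 159 CPM (95% interval 106 to 229.7) against 889.9 CPM, so it was lower in *Prnd*-positive barcodes of both genotypes.

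**Figure D5:**
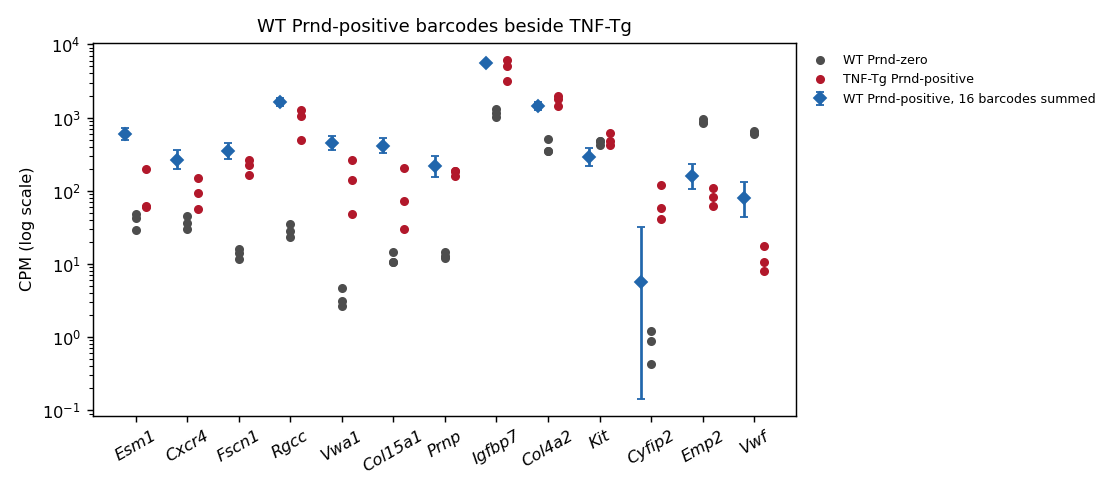
Levels (CPM, log axis) of 13 genes in the 16 WT *Prnd*-positive barcodes summed (diamonds, exact Poisson 95% intervals) beside the 3 WT *Prnd*-zero sums and the 3 TNF-Tg *Prnd*-positive sums (points, 1 per library). For *Esm1*, *Fscn1*, *Rgcc*, *Vwa1*, *Col15a1*, and *Prnp* the diamond lies above all WT *Prnd*-zero points, whereas for *Cyfip2* its interval of 0.144 to 31.6 CPM lies below all TNF-Tg points.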

How the data were processed

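The 6 10x Genomics 3′ libraries were analysed. The authors counted UMIs per gene and barcode with Cell Ranger (5.0.0 in the processing notes, and 5.0.0 or 6.0.1 in the file headers) on GRCm38, and the deposited values are raw UMI counts. Members and gene lists were chosen with earlier results of these data known. Counts were summed per library and arm and tested in edgeR 4.0.16 (R 4.3.3) with its quasi-likelihood F test, TMM factors, and filterByExpr. The library was a block in the comparisons within TNF-Tg libraries, and the comparison between genotypes was unpaired with no block. The arms of a library come from the same pool, which is where the pairing comes from. FDR values are Benjamini-Hochberg adjusted over all genes tested. CPM are summed UMIs scaled to a total of 1000000, and a 3′ UMI count is not divided by length. Named genes were the 12 called genes of largest change in each direction with at least 50 CPM in the higher arm and 3 libraries in 1 direction, up to 4 called genes of each of 26 lists, the 8 in each direction of the *Esm1* comparison, and a set of genes of interest. The 9 rule genes were not tested. Thinning used seed 7, and the highest Scrublet scores (scanpy 1.11.5) were taken at 0.8% per 1000 barcodes. On simulated counts of 13409 genes for the first comparison, edgeR recovered 76.3% of 2-fold and 97.0% of 4-fold changes, against 12.5 and 60.6% for the *Esm1* comparison (11353 genes) and 59.2 and 87.5% between genotypes (14066 genes). DESeq2 1.42.0, library totals, no expression filter, a UMI window, other gates, and leaving out each library were alternatives. Intervals cover counting error only. Protein sequences were not used here, and 1 gene that met the naming rule is not reported here.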

Additional observations from a re-analysis of the deposited data

Results flagged for a closer look

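Cycling endothelial barcodes, which the comparisons left out, held *Prnd* in the TNF-Tg libraries. After thinning to 2000 UMIs, 17.1, 43.5, and 48.4% of them had a *Prnd* UMI at 8, 14, and 20 weeks, beside 1 of 26, 0 of 8, and 0 of 24 in WT. These few WT barcodes allow exact 95% upper bounds of 19.6, 36.9, and 14.2%, so the 8-week TNF-Tg share is not above that of WT beyond counting error. Before thinning, 106 of 334, 151 of 240, and 114 of 162 held 2 or more.

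Fibroblast and mural barcodes of the TNF-Tg libraries, also outside the comparisons, had a *Prnd* UMI in 0.971, 2.65, and 0.485% after thinning, beside 0 of 791, 0 of 448, and 1 of 613 WT barcodes. These shares are given as values, and free RNA in the droplets was not tested as a source.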

How the results depend on the processing

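For members against *Prnd*-zero barcodes, leaving out 1 library gave 340 to 2256 genes higher and 595 to 2558 lower. Without the replicate block, which ignores that both arms come from 1 pool, 298 were higher and 453 lower. The strict reference of 51, 29, and 29 barcodes gave 82 and 112, the subtype-filtered comparison 1002 and 1040, and that comparison in the UMI window 753 and 846, the last 2 added after seeing the data. All other settings stayed within 1.5 times in each direction, DESeq2 with 1233 and 1504. Of called genes 46.2% were higher, 45.0% with DESeq2, and 37.0% with library totals alone (1424 and 2425).

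Among genes named in the text, under the strict reference the log2 fold change turned sign for *Ccl21a* (0.24), *Fibin* (1.41), *Fbln5* (0.88), *Cpe* (0.54), *Emp2* (0.62), *Tbx2* (1.47), *Vegfc* (8.64), *Hilpda* (0.88), *Bmx* (0.37), *Lamb2* (0.040), *Cxcl9* (-0.11), *Cxcl2* (-0.53), *Ltbr* (0.67), *Gbp5* (-0.30), *H2-Eb1* (0.58), *Smad6* (0.99), *Notch2* (-0.042), *Bmpr2* (0.17), and *Car4* (0.98), of which only *Car4* passed (edgeR FDR = 0.0333). The strict reference barcodes were few and shallow, at medians of 2110, 1328, and 2934 UMIs, and the cause was not tested. In the subtype-filtered comparison *Selp* (0.17), *Apln* (1.84), and *Bmp6* (-0.18) turned, and in its UMI window *Vwf* (0.040), *Apln* (2.15), and *Bmp6* (-0.14). The filter uses *Selp* and *Vwf* themselves, so the turns of these genes are partly fixed.

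Against *Esm1*-gated barcodes, leaving out 1 library gave 0 to 191 genes higher and 0 to 229 lower. No replicate block gave 0 and 0 by edgeR (1632 genes at an unadjusted p under 0.05), DESeq2 52 and 150, no expression filter 107 and 218, the UMI window 83 and 80, removal of other-lineage barcodes 244 and 300, removal of the highest Scrublet scores 35 higher, and a minimum of 3 *Prnd* UMIs 11 higher. At 14 weeks the UMI window left only 3 reference barcodes and the removal of other-lineage barcodes only 9. Both are fewer than the plan set for a test, so these counts do not measure robustness. Between genotypes, leaving out 1 library gave 580 to 2587 higher and 592 to 2436 lower, and a window of 4000 to 8000 UMIs 1078 lower. The mean WT share was 0.174% with 1 *Prnd* UMI as the minimum, beside 0.0913%.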
